A study of Rattus norvegicus with 33 samples.

Results

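The 11 arrays described here were hybridized with RNA of dorsal root ganglia (DRG) from rats that received an absorbable collagen sponge (ACS) soaked with recombinant human BMP-2 (rhBMP-2/ACS) beside the lumbar spine. They were chosen by their titles from the 33 arrays of the series, and 4 were taken at 1 day post-surgery (dps), 3 at 3 dps and 4 at 7 dps. All animals were Sasco/Sprague-Dawley rats of 13 weeks, and the methods describe them as female. Each array is understood from the methods to hold the L4 and L5 DRG of a single rat on the operated side, so the days compare different animals. The other arrays came from rats of the same strain and age with a sponge soaked in vehicle (vehicle/ACS) or with the operation alone (no sponge), with the same numbers of arrays at each day. Surgery was common to every group, and the design holds no unoperated rats. For hybridization the methods kept RNA samples of the best quality and concentration, so the arrays are a selected set of the animals.

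DRG hold the cell bodies of sensory neurons, each wrapped by satellite glia, with Schwann cells along the axons and macrophages, fibroblasts and vessels between them. Sensory neurons whose axons are injured are known to switch on neuropeptides such as NPY, VIP and galanin, while macrophages around them multiply or enter from the blood. BMP-2 signals through receptor kinases and Smad transcription factors, which raise Id genes and the inhibitory Smads in many cells.

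The comparisons ask which transcripts differ between 1, 3 and 7 dps in rhBMP-2/ACS DRG, and whether the same difference between days was larger or smaller in the vehicle/ACS and no sponge DRG. Intensities were background corrected, quantile normalized and taken to log2, and a level below is a log2 normalized intensity. Of 22523 probes, 11489 were kept, each detected (p under 0.05 against control beads) on 75% or more of a day's arrays. The changes between days were tested by limma, with an adjusted p under 0.05 called, and values after ± are standard errors of log2 differences. The 3 comparisons of days share their arrays and are therefore not independent of each other.

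Before any gene was compared, the arrays themselves differed by day. Detected probes numbered 10237 to 10553 on the earliest arrays, 10663 to 11026 on those of 3 dps and 11350 to 11656 on those of 7 dps. The lowest intensity on an array, which reflects its background, was 32.7 to 37.0 on day 1, 79.5 to 92.4 on day 3 and 70.7 to 80.8 on day 7, and arrays of the other treatments moved the same way (31.5 to 39.8, 78.7 to 101.4 and 70.7 to 79.9). Day and array batch cannot be told apart in the rhBMP-2/ACS arrays alone. Correlations of arrays were 0.9826 to 0.9937 within a day and 0.9647 to 0.9799 between days. The neuron markers Prph, Nefh, Nefm, Scn10a, Isl1 and Tubb3 and the glial markers Sox10 and Fabp7 were detected on all 11 arrays, while the probes for Calca and Kcnj10 were detected on 0 of 11.

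Some arrays stood apart. Replicate 3 at 1 dps and replicate 3 at 7 dps had the highest mean level of 13 skeletal muscle genes, at 7.78 against 6.78 to 6.84 and 7.59 against 6.84 to 6.92 in the others of their day. The 7 dps array was also the highest of its day for 7 erythrocyte genes and 12 neutrophil genes. Replicate 3 at 3 dps was the highest of its day for matrix, macrophage, neutrophil and cell cycle genes and the lowest for cholesterol synthesis genes. In whole ganglia, fewer cells of a type and less RNA per cell cannot be told apart. Where leaving out the array at 3 dps moved a count of list members strongly, the count without it is given as well.

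A large share of the transcriptome differed between days. From 1 to 3 dps 1704 probes rose and 1818 fell, 30.7% of the probes tested, with 14.8% higher and 15.8% lower. From 1 to 7 dps 2319 rose and 2241 fell (39.7%, of which 20.2% higher and 19.5% lower), and from 3 to 7 dps 2415 rose and 2011 fell (38.5%, 21.0% higher and 17.5% lower). In the same 3 comparisons the arrays of the days compared did not overlap for 36.6%, 38.3% and 40.5% of the probes. Genes named for the largest changes were also required not to overlap, so their lack of overlap adds no evidence. Counts of list members below are to be read against these shares of all probes. The split of directions depended on the scaling. When arrays were scaled to a common median instead, the median of all probes shifted by 0.13 from 1 to 3 dps and by 0.17 from 1 to 7 dps, and the probes called became 3119 higher and 977 lower, 4057 higher and 1457 lower and, from 3 to 7 dps, 2199 higher and 1939 lower. By the thresholds of the methods, which combine a minimum fold with a lenient p-value before adjustment, 678, 802 and 1002 probes passed (5.9%, 6.98% and 8.72%).

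Changes of this extent were not particular to rhBMP-2. In one fit of all 33 arrays, which kept 12029 probes, vehicle/ACS DRG had 36.7%, 47.4% and 40.9% of probes called in the same 3 comparisons and no sponge DRG 22.2%, 48.5% and 29.4%, against 33.3%, 42.4% and 41.0% for rhBMP-2/ACS. The change from 1 to 3 dps differed between rhBMP-2/ACS and vehicle/ACS for 140 probes (114 higher and 26 lower with rhBMP-2, 1.16%, of which 0.948% higher and 0.216% lower), and the change from 3 to 7 dps for 832 probes (282 higher and 550 lower, 6.92%, of which 2.34% higher and 4.57% lower). Median scaling gave 132 higher and 2 lower for the first and 44 higher and 452 lower for the second. For 1 to 7 dps limma called 0 probes different from vehicle/ACS (0.0%), with 636 at an unadjusted p under 0.05. Against no sponge DRG the change differed for 106 probes from 1 to 3 dps (63 higher and 43 lower, 0.881%), for 84 from 1 to 7 dps (64 higher and 20 lower, 0.698%, of which 0.532% higher and 0.166% lower) and for 2 from 3 to 7 dps (0.0166%), and with median scaling for 65 (65 higher and 0 lower), 212 (208 and 4) and 3. The 140 and 832 probes rested in part on replicate 3 at 3 dps, without which 5 and 209 were called, and on replicate 2 of vehicle/ACS at 3 dps, without which 7 and 440 were called.

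Npy, Gal and Vip were higher at 3 and 7 dps than at 1 dps. Neuropeptide Y (Npy), galanin (Gal) and vasoactive intestinal peptide (Vip) are scarce in intact sensory neurons and are known to appear after axon injury in the rat. Their probes are named by gene symbol, and the 250 bases before the annotated start of each gene are shown because all 3 peptides rose. They come from RefSeq (build GRCr8, chr4:80211861-80212110 on the plus strand for Npy, chr1:44470230-44470479 on the plus strand for Vip and chr1:210084573-210084822 on the minus strand for Gal). Capitals mark TGACG, the half-site of the cAMP response element, searched on both strands.

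Npy: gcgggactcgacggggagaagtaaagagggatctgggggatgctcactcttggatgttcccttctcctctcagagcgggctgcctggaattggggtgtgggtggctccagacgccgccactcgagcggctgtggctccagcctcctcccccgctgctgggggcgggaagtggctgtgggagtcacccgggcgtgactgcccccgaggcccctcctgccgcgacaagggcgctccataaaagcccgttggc
Vip: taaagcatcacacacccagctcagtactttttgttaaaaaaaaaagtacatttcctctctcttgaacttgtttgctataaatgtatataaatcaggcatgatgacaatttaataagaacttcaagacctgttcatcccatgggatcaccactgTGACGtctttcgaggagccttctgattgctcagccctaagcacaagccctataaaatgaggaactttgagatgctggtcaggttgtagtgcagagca
Gal: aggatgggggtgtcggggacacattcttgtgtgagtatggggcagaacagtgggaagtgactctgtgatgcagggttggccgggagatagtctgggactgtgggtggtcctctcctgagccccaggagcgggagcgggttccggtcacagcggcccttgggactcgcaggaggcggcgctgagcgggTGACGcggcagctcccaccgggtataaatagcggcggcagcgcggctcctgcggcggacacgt

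The half-site lay 97 bases before the start of Vip and 63 bases before that of Gal, and these letters were not in the window of Npy. It occurred in 19.0% of 27457 windows of this length, so its presence is a description of the sequence only.

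Npy levels were 6.44, 6.54, 7.61 and 8.13 in the 4 rats at 1 dps, 9.50, 9.25 and 9.85 in the 3 rats at 3 dps and 10.63, 10.66, 10.68 and 10.91 in the 4 rats at 7 dps. The 3 days did not overlap, and the spread was widest at 1 dps. Between any pair of days 36.6% to 40.5% of all probes showed no overlap either. Npy rose 5.1-fold by 3 dps (log2 difference 2.35 ± 0.32, adjusted p = 0.00015) and 11.6-fold by 7 dps (3.54 ± 0.29, adjusted p = 7e-06), and the step from 3 to 7 dps was also called (1.19 ± 0.32, adjusted p = 0.01). Vehicle/ACS DRG rose by 3.64 from 1 to 7 dps and the difference between the treatments was not called (-0.09 ± 0.43, adjusted p = 0.99). Against no sponge DRG, which rose by 0.91, the rise was larger by 2.64 ± 0.43 (adjusted p = 0.0017).

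Vip levels were 4.82, 5.16, 6.38 and 4.70 at 1 dps, where 2 of 4 arrays detected it, 7.49, 7.36 and 7.96 at 3 dps and 8.19, 8.36, 8.02 and 7.45 at 7 dps. All later arrays lay above all those at 1 dps, and the arrays of 3 and 7 dps overlapped. The rise was 5.04-fold at 3 dps (2.33 ± 0.34, adjusted p = 0.00024) and 6.66-fold at 7 dps (2.73 ± 0.31, adjusted p = 4.3e-05), with no call from 3 to 7 dps (0.40 ± 0.34, adjusted p = 0.37). It exceeded that of no sponge DRG from 1 to 7 dps by 3.03 ± 0.61 (adjusted p = 0.012), and against vehicle/ACS the difference was -0.25 ± 0.61 (adjusted p = 0.98).

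Gal levels were 7.41, 7.52, 8.16 and 7.42 at 1 dps, 8.57, 8.63 and 8.44 at 3 dps and 9.71, 9.61, 9.39 and 9.59 at 7 dps. Each day lay above the one before with no overlap, although 1 rat at 1 dps was well above its group. The rise was 1.89-fold by 3 dps (0.92 ± 0.16, adjusted p = 0.00081) and 3.86-fold by 7 dps (1.95 ± 0.15, adjusted p = 4e-06). In no sponge DRG Gal differed by -0.59 from 1 to 7 dps without a call, and the difference between the changes was 2.54 ± 0.39 (adjusted p = 0.00087). Vehicle/ACS levels of Gal, normalized over all 33 arrays, were 7.47 to 7.91 at 1 dps and 8.68 to 9.37 at 7 dps. The difference from vehicle/ACS over those days was not called.

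Csrp3 encodes muscle LIM protein, a cytoskeletal protein of striated muscle that injured rat sensory neurons also make. Its levels were 4.92, 4.87, 5.86 and 5.15 at 1 dps, with 2 of 4 arrays detecting it, 6.52, 6.25 and 6.38 at 3 dps and 7.77, 8.04, 7.40 and 7.81 at 7 dps. The 3 groups did not overlap, and the rise reached 5.88-fold by 7 dps (2.56 ± 0.20, adjusted p = 4e-06). Of 13 skeletal muscle contractile genes tested, 0 rose and 0 fell from 1 to 7 dps (median log2 difference 0.04), or 3 and 0 under median scaling, and their summed normalized intensity was 18000 to 19600 on day 1, 14400 to 15800 on day 3 and 19200 to 20200 on day 7. That sum follows the brightest members. The mean log2 level of the 13 genes was 6.78 to 7.78, 6.67 to 6.74 and 6.84 to 7.59 on those days. The part of muscle in the rise of Csrp3 was not tested. The rise of Csrp3 was larger than in no sponge DRG by 3.46 ± 0.60 (adjusted p = 0.0035). Its vehicle/ACS levels, normalized over all 33 arrays, were 5.13 to 6.85 at 1 dps and 6.84 to 7.94 at 7 dps. The difference from vehicle/ACS over those days was not called.

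**Figure D1:**
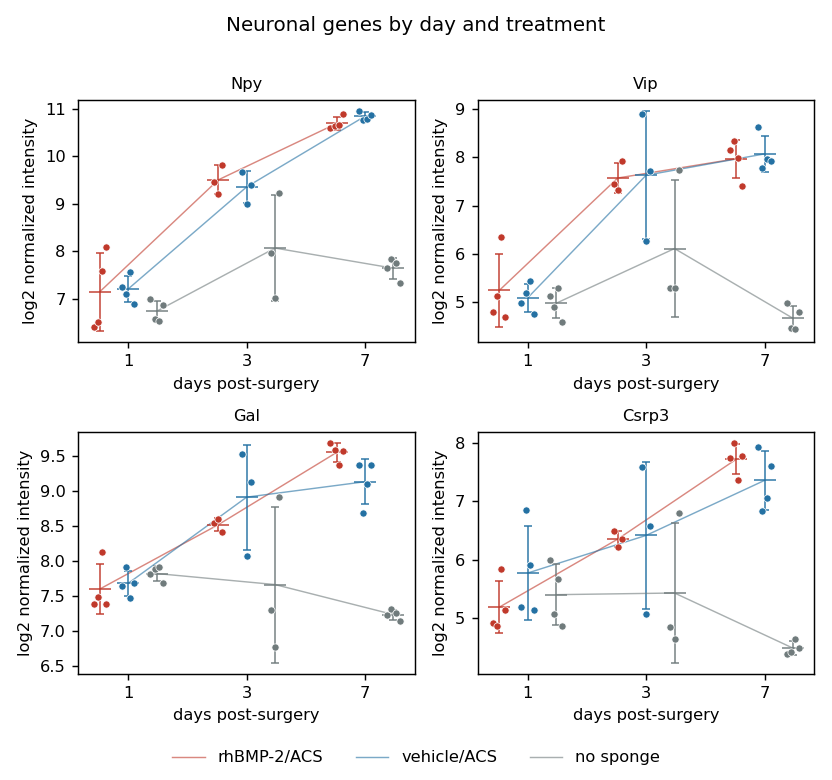
Log2 normalized intensity of Npy, Vip, Gal and Csrp3 (vertical axis) at 1, 3 and 7 dps (horizontal axis) in rhBMP-2/ACS, vehicle/ACS and no sponge DRG, normalized over all 33 arrays, with 1 point per array and bars for the mean and SD of 4, 3 and 4 arrays. The means of all 4 genes are higher at 7 dps than at 1 dps in both sponge groups, and in no sponge DRG at 7 dps every array of the 4 genes lies below the sponge groups.

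Other peptides and injury genes moved less evenly. Of 17 neuropeptide genes tested, 4 rose and 3 fell from 1 to 3 dps, 6 rose and 2 fell from 1 to 7 dps, and 6 rose and 0 fell from 3 to 7 dps, with a median log2 difference from 1 to 7 dps of 0.08 against 0.01 over all probes. Median scaling gave 6 and 0, 7 and 1, and 4 and 0. Urocortin (Ucn), a peptide of the corticotropin-releasing family, was detected on 0 of 4 arrays at 1 dps and on every later array, and was at least 2.09-fold higher at 7 dps (adjusted p = 3.3e-05), a bound taken against the lowest detected signal of each array. Beside such a bound, here and below, the adjusted p tests the difference of the measured levels and not the bound. Cholecystokinin (Cck) rose 2.4-fold (1.26 ± 0.15, adjusted p = 6.3e-05). Tac1, the substance P precursor, rose by 0.30 ± 0.07 (adjusted p = 0.0035), while Calcb, a calcitonin gene-related peptide, fell by 0.53 ± 0.10 on the log2 scale by 3 dps (adjusted p = 0.0013, a call lost under median scaling) and by 0.45 ± 0.09 by 7 dps (adjusted p = 0.0017). Prodynorphin (Pdyn) was detected only on the arrays of 7 dps, where its level was at least 1.12-fold that of 1 dps (adjusted p = 0.002). Its probe was kept through that day alone. The lowest detected signal of an array was itself lower at 7 dps (4.90 to 4.94) than at 1 dps (5.08 to 5.14).

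Of 26 nerve injury and regeneration genes, 7 rose and 2 fell from 1 to 3 dps, 9 rose and 4 fell from 1 to 7 dps and 6 rose and 5 fell from 3 to 7 dps, and their medians were 0.14, -0.01 and 0.06. Median scaling gave 10 and 1, 12 and 1, and 6 and 4, with medians of 0.32, 0.22 and 0.04. Gap43, a growth cone protein, rose 1.51-fold by 3 dps (0.60 ± 0.06, adjusted p = 3.2e-05) and came down by 0.20 ± 0.06 on the log2 scale from 3 to 7 dps (adjusted p = 0.028). Reg3b, a secreted lectin made by injured sensory neurons, fell 2.81-fold from 1 to 7 dps (-1.49 ± 0.25, adjusted p = 0.00065). Atf3, the transcription factor most used as a mark of axon injury, differed by -0.20 ± 0.30 from 1 to 3 dps and -0.02 ± 0.28 from 1 to 7 dps, neither of them called (adjusted p = 0.65 and 0.96). In no sponge DRG Atf3 differed by -1.75 from 1 to 7 dps, and the treatments differed by 1.72 ± 0.42 (adjusted p = 0.047). That call lay at the threshold and was lost without any of 12 single arrays. Across the list, 7 genes changed more upward than in no sponge DRG from 1 to 7 dps and 0 more downward.

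Nociceptor channels and receptors showed no common direction under quantile normalization, with 0 of 17 higher and 3 lower from 1 to 3 dps, 2 higher and 4 lower from 1 to 7 dps and 3 higher and 3 lower from 3 to 7 dps. Median scaling turned the first to 3 higher and 2 lower and the second to 8 higher and 4 lower. The heat and capsaicin channel Trpv1 differed by -0.20 ± 0.08 from 1 to 3 dps (adjusted p = 0.087), a difference that was 0.08 under median scaling, and by -0.01 ± 0.08 from 1 to 7 dps (adjusted p = 0.91). Per2, a gene of the circadian clock, differed in its course from no sponge DRG. Its levels were 8.94, 8.35, 8.20 and 8.53 at 1 dps, 8.85, 9.12 and 8.86 at 3 dps and 9.38, 8.95, 9.32 and 9.18 at 7 dps, and it rose by 0.70 ± 0.14 from 1 to 7 dps (adjusted p = 0.0021). The lowest array at 7 dps was just above the highest at 1 dps. No sponge DRG fell by 2.39 on the log2 scale over the same days, and the difference between the changes was 3.10 ± 0.29 (adjusted p = 7.9e-08). Vehicle/ACS DRG rose by 0.76. Hours of tissue collection are not in the labels used here, and their part was not tested.

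Matrix genes had risen by 3 dps. Of 32 genes of matrix glycoproteins and fibroblasts tested, 14 rose and 2 fell from 1 to 3 dps, 12 rose and 1 fell from 1 to 7 dps, and 5 rose and 8 fell from 3 to 7 dps, with medians of 0.71, 0.36 and -0.15. Without replicate 3 at 3 dps the first became 10 and 1 and the last 5 and 2. Collagens rose in 6 of 13 cases and fell in 1 by 3 dps, and 5 rose and 0 fell by 7 dps. These became 4 and 1 and 9 and 0 without replicate 3 at 3 dps, and 6 and 0 and 10 and 0 under median scaling. The mean level of the 32 genes was 7.68 to 7.99 on day 1, 8.05 to 8.79 on day 3 and 8.06 to 8.39 on day 7.

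Cthrc1, a secreted protein of activated fibroblasts, had levels of 7.00, 7.43, 7.78 and 7.57 at 1 dps, 8.76, 9.16 and 9.77 at 3 dps and 8.25, 8.15, 8.96 and 8.58 at 7 dps. Every array at 3 and 7 dps was above every array at 1 dps, while 3 and 7 dps overlapped. It rose 3.45-fold by 3 dps (1.79 ± 0.24, adjusted p = 0.00015) and stayed 2.06-fold above 1 dps at 7 dps (1.04 ± 0.22, adjusted p = 0.0028). The fall from 3 to 7 dps of 0.75 ± 0.24 on the log2 scale (adjusted p = 0.027) was lost without replicate 2 or 3 at 3 dps or replicate 1 or 2 at 7 dps, and with the authors' normalized values.

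Col5a2, a chain of type V collagen, was 8.81, 8.92, 9.09 and 9.23 at 1 dps, 10, 10.25 and 10.53 at 3 dps and 9.69, 9.82, 9.92 and 9.82 at 7 dps. Its groups did not overlap, with 3 dps highest and 1 dps lowest. It rose 2.37-fold by 3 dps (1.25 ± 0.12, adjusted p = 2e-05) and fell by 0.45 ± 0.12 on the log2 scale from 3 to 7 dps (adjusted p = 0.012), the fall being lost without replicate 3 at 3 dps. Col18a1, whose cleavage yields endostatin, was 7.30, 7.33, 8.18 and 7.88 at 1 dps, 8.70, 8.78 and 9.46 at 3 dps and 8.19, 8.05, 8.89 and 8.04 at 7 dps. By 3 dps all arrays were above those of 1 dps, and at 7 dps they overlapped with both other days. Col18a1 rose 2.48-fold (1.31 ± 0.26, adjusted p = 0.002), and from 1 to 7 dps it differed by 0.62 ± 0.24 without a call (adjusted p = 0.052).

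Other matrix genes followed different courses. The small proteoglycans asporin (Aspn, detected on 2 of 4 arrays at 1 dps) and lumican (Lum) rose 3.34-fold and 2.48-fold by 3 dps (adjusted p = 0.00016 and 3.1e-05) and were 2.15-fold and 2.21-fold above 1 dps at 7 dps. Fibrillin (Fbn1) rose 1.97-fold by 3 dps (adjusted p = 0.0028) and fell 1.99-fold from 3 to 7 dps (adjusted p = 0.0019). Sparc, a collagen-binding glycoprotein, had its rise later, 1.9-fold from 3 to 7 dps (0.93 ± 0.13, adjusted p = 0.00017). Fibrillar Col1a2 rose 1.53-fold by 3 dps and 1.75-fold by 7 dps (adjusted p = 9.1e-05 and 9e-06). Fap, a surface protease of activated fibroblasts, was detected on 1 of 4 arrays at 1 dps and on all later ones, 3.3-fold and 3.65-fold higher (adjusted p = 0.0023 and 0.00066).

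In vehicle/ACS DRG the matrix list had a median of -0.32 from 1 to 3 dps and 0.83 from 3 to 7 dps, with 20 of 32 genes rising and 0 falling in the latter. The change from 1 to 3 dps was more upward with rhBMP-2/ACS for 4 matrix genes and 4 collagens and more downward for 0, and the change from 3 to 7 dps more downward for 15 matrix genes and 8 collagens and more upward for 0. For Cthrc1 these differences were 2.11 ± 0.39 (adjusted p = 0.011) and -2.87 ± 0.39 (adjusted p = 0.00014), and for Col18a1 1.75 ± 0.38 (adjusted p = 0.027) and -2.58 ± 0.38 (adjusted p = 0.00036). Col5a2 and Fbn1 were -1.49 ± 0.23 and -1.79 ± 0.30 from 3 to 7 dps (adjusted p = 0.00044 and 0.00091). From 1 to 7 dps no gene of either list differed between the treatments by limma.

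The calls depended on single arrays of 3 dps. Without replicate 3 of rhBMP-2/ACS at 3 dps, 5 matrix genes and 5 collagens were called from 3 to 7 dps and 0 from 1 to 3 dps, and without replicate 2 of vehicle/ACS at 3 dps, 8 and 5 from 3 to 7 dps and 0 from 1 to 3 dps. When only the 4 groups concerned were normalized and fitted, 11 and 5 were called from 3 to 7 dps and 0 from 1 to 3 dps.

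**Figure D2:**
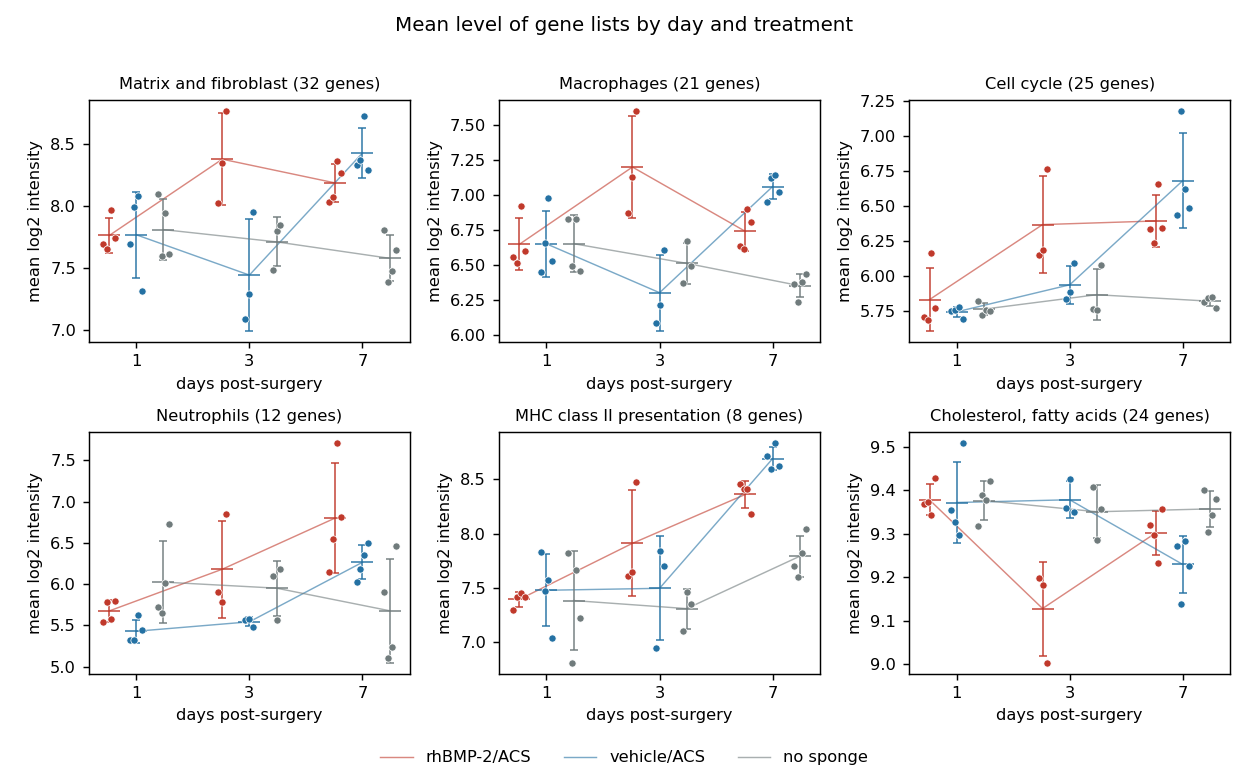
Mean log2 normalized intensity of 6 gene lists (vertical axis) at 1, 3 and 7 dps (horizontal axis) in the 3 treatments, normalized over all 33 arrays, with 1 point per array and bars for the mean and SD of 4, 3 and 4 arrays. With rhBMP-2/ACS the matrix and macrophage lists are highest at 3 dps and the cholesterol list lowest, while in vehicle/ACS DRG the matrix and macrophage lists are lowest at 3 dps and highest at 7 dps.

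Macrophage genes were highest at 3 dps. Of 21 macrophage and monocyte genes, 11 rose and 1 fell from 1 to 3 dps, 3 rose and 3 fell from 1 to 7 dps, and 0 rose and 9 fell from 3 to 7 dps (medians 0.60, 0.18 and -0.46). Without replicate 3 at 3 dps the first became 6 and 1 and the last 0 and 4. The mean level was 6.54 to 6.95 on day 1, 6.90 to 7.63 on day 3 and 6.64 to 6.93 on day 7.

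Fcgr3a, an activating Fc receptor of macrophages and natural killer cells, was 5.91, 5.18, 6.05 and 5.85 at 1 dps, 7.04, 6.50 and 8.01 at 3 dps and 5.95, 5.64, 6.45 and 6.30 at 7 dps. Only the arrays of 3 dps lay apart from the other days, and among them replicate 3 was far above the rest. It rose 2.7-fold (1.43 ± 0.31, adjusted p = 0.0037) and fell 2.13-fold afterwards (-1.09 ± 0.31, adjusted p = 0.013), and the fall was lost without that array. Cybb, the catalytic subunit of the phagocyte NADPH oxidase, was detected on 0 of 4 arrays at 1 dps, 3 of 3 at 3 dps and 2 of 4 at 7 dps, with levels of 5.70, 5.70 and 6.09 at 3 dps and 4.60, 5.08, 4.91 and 4.79 at 7 dps. It was at least 1.64-fold higher at 3 than at 1 dps (adjusted p = 0.00025) and fell 1.98-fold from 3 to 7 dps (adjusted p = 0.00014).

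Other receptors were highest early. Cd14, the endotoxin co-receptor, did not pass the test from 1 to 3 dps (-0.04 ± 0.28, adjusted p = 0.92) and fell 2.22-fold from 3 to 7 dps (adjusted p = 0.0055). Fcgr2b, the inhibitory Fc receptor, fell stepwise and was detected on 0 of 4 arrays at 7 dps, so that its level at 1 dps was at least 2.31-fold higher (adjusted p = 2.2e-05). Of 15 complement genes 7 rose and 1 fell by 3 dps, or 2 and 1 without replicate 3, and C4b was 1.62-fold and 1.62-fold above 1 dps at 3 and 7 dps (adjusted p = 0.0099 and 0.005).

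Relative to vehicle/ACS, in which 13 of the 21 macrophage genes rose and 0 fell from 3 to 7 dps, the change from 3 to 7 dps was more downward with rhBMP-2/ACS for 14 macrophage and 7 complement genes and more upward for 0. These counts were 10 and 4 without replicate 3 of rhBMP-2/ACS at 3 dps. The difference was -2.29 ± 0.48 for Fcgr3a, -1.16 ± 0.24 for Cybb and -2.08 ± 0.43 for Cd14 (adjusted p = 0.0046, 0.0044 and 0.0036). From 1 to 3 dps 4 macrophage and 4 complement genes changed more upward than in vehicle/ACS, among them Fcgr3a (2.19 ± 0.48, adjusted p = 0.027) and C4b (1.28 ± 0.31, adjusted p = 0.037), and without the same array 0 did.

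**Figure D3:**
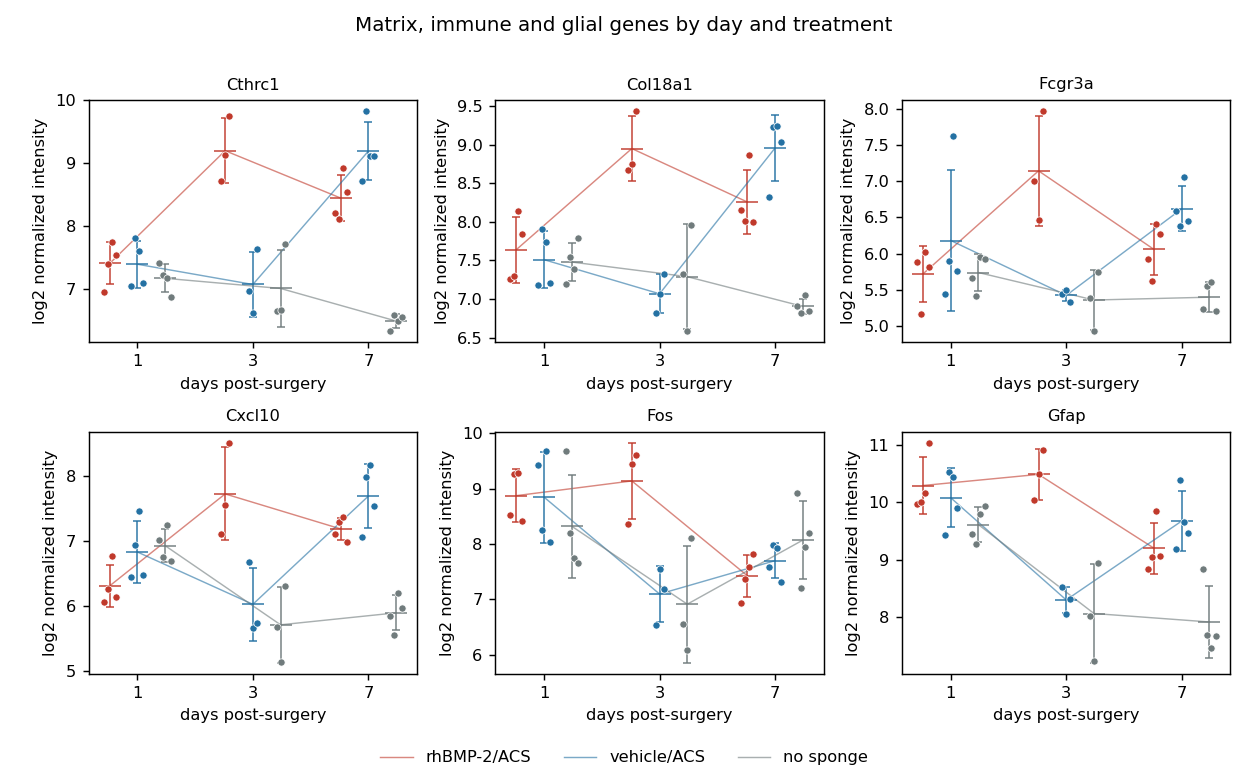
Log2 normalized intensity of Cthrc1, Col18a1, Fcgr3a, Cxcl10, Fos and Gfap (vertical axis) at 1, 3 and 7 dps (horizontal axis) in the 3 treatments, normalized over all 33 arrays, with 1 point per array and bars for the mean and SD of 4, 3 and 4 arrays. At 3 dps every rhBMP-2/ACS array of each gene lies above every vehicle/ACS array, and at 7 dps the means of both sponge groups lie closer to each other.

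Interferon-induced chemokines rose by 3 dps. Cxcl9, Cxcl10 and Cxcl11 are ligands of the receptor CXCR3 on activated T cells and are known targets of interferon. The window before the start of Cxcl10 (RefSeq, GRCr8, chr14:15988816-15989065, plus strand) is shown because it holds an interferon-stimulated response element, in capitals. This was searched on both strands as a pair of GAAA separated by any 2 bases and was found in 3.29% of 27457 windows.

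Cxcl10: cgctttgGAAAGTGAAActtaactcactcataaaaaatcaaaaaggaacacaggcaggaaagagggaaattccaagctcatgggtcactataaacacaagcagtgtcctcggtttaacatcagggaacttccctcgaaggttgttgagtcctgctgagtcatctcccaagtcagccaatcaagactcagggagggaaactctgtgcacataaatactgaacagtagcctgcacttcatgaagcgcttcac

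The element began 243 bases before the start, and the letters were not in the windows of Cxcl9 and Cxcl11. Cxcl10 levels were 6.09, 6.29, 6.81 and 6.17 at 1 dps, 7.14, 7.59 and 8.54 at 3 dps and 7.14, 7.32, 7.39 and 7.02 at 7 dps. All arrays at 3 and 7 dps lay above those at 1 dps, and replicate 3 at 3 dps was the highest. Cxcl10 rose 2.67-fold by 3 dps (1.42 ± 0.26, adjusted p = 0.0014) and was 1.84-fold above 1 dps at 7 dps (0.88 ± 0.24, adjusted p = 0.012).

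Cxcl11 was 5.02, 4.82, 5.24 and 4.79 at 1 dps, with 1 of 4 arrays detecting it, 5.73, 7.10 and 7.78 at 3 dps and 5.67, 6.15, 5.72 and 6.42 at 7 dps. Its rise by 3 dps was 3.74-fold (1.90 ± 0.35, adjusted p = 0.0014), with no overlap between 1 dps and either later day. Cxcl9 was 7.00, 6.98, 7.24 and 6.55 at 1 dps, 7.76, 8.65 and 8.54 at 3 dps and 8.21, 8.62, 8.32 and 8.40 at 7 dps. It rose 2.59-fold by 3 dps and was still 2.71-fold higher at 7 dps (adjusted p = 0.00028 and 0.0001), all later arrays being above those of 1 dps.

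The differences given here are against vehicle/ACS for Cxcl10 and Cxcl11 and against no sponge for Cxcl9. They therefore do not show whether the 3 chemokines differed in timing. Cxcl10 and Cxcl11 changed more upward than in vehicle/ACS from 1 to 3 dps (2.22 ± 0.43 and 2.32 ± 0.42, adjusted p = 0.013 and 0.0076), calls that were lost without replicate 3 at 3 dps. They changed more downward from 3 to 7 dps (-2.20 ± 0.43 and -2.40 ± 0.42, adjusted p = 0.0024 and 0.00098), which held without each array in turn. For Cxcl9 the change from 1 to 7 dps exceeded that of no sponge DRG, which fell by 1.24 on the log2 scale, by 2.68 ± 0.30 (adjusted p = 4e-06). In vehicle/ACS DRG Cxcl9, normalized over all 33 arrays, was also higher at 7 dps (8.20 to 8.64) than at 1 dps (7.04 to 7.45). Over those days limma called no probe different from vehicle/ACS.

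Of 19 cytokine and chemokine genes, 8 rose and 1 fell from 1 to 3 dps, 7 rose and 2 fell from 1 to 7 dps and 0 rose and 2 fell from 3 to 7 dps, or 0 and 1 without replicate 3 at 3 dps. The B cell attractant Cxcl13 rose 3.06-fold by 3 dps (adjusted p = 0.0047) and fell 2.02-fold from 3 to 7 dps (adjusted p = 0.04). Tgfb1, a growth factor of the family to which BMP-2 belongs, was 3.12-fold and 3-fold above 1 dps at 3 and 7 dps (adjusted p = 0.0004 and 0.00024), and 2 of 4 arrays detected it at 1 dps. The monocyte attractant Ccl2 was not called by 3 dps (-0.09 ± 0.24, adjusted p = 0.8) and was 2.08-fold lower at 7 than at 1 dps (adjusted p = 0.0022). Ptgs2, the inducible cyclooxygenase, differed by 0.60 ± 0.48 from 1 to 3 dps and -0.30 ± 0.44 from 1 to 7 dps, neither called (adjusted p = 0.36 and 0.62).

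Genes of antigen presentation and of granulocytes rose by 7 dps. Of 8 MHC class II genes 2 rose from 1 to 3 dps and 6 from 1 to 7 dps, and 0 fell in either, with a median of 0.82 from 1 to 7 dps. Cd74, the invariant chain, was 6.44, 6.63, 6.45 and 6.89 at 1 dps, 6.84, 6.49 and 7.86 at 3 dps and 8.63, 8.94, 8.60 and 8.46 at 7 dps. Its rise was called in the second interval (3.02-fold, 1.59 ± 0.25, adjusted p = 0.00032) and not in the first (0.46 ± 0.25, adjusted p = 0.18), and the 7 dps arrays were all above the rest. RT1-Da, a class II alpha chain, had risen 2.52-fold by 3 dps (adjusted p = 0.0013) and was 3.19-fold higher at 7 dps (adjusted p = 0.00013). In vehicle/ACS DRG 7 of the 8 genes rose and 0 fell from 1 to 7 dps (median 1.19), and the no sponge median was 0.41. From 3 to 7 dps 3 genes changed more downward with rhBMP-2/ACS than with vehicle/ACS and 0 more upward.

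In 12 neutrophil and bone marrow granulocyte genes 0 rose and 0 fell by 3 dps (median 0.51), and 7 rose and 0 fell by 7 dps (median 1.19). The defensin Np4 was 4.85, 5.22, 4.59 and 5.64 at 1 dps, 5.83, 5.40 and 7.55 at 3 dps and 6.07, 7.37, 8.93 and 7.53 at 7 dps. At both later days replicate 3 was the highest, and all arrays of 7 dps lay above those of 1 dps. Np4 rose 5.29-fold by 7 dps (2.40 ± 0.52, adjusted p = 0.003), and the alarmin S100a8, at 7.18, 7.48, 7.82 and 7.79 at 1 dps and 8.35, 8.90, 10.18 and 9.43 at 7 dps, 3.13-fold (1.64 ± 0.38, adjusted p = 0.0044). Ngp, a granule protein detected on 0 of 4 arrays at 1 dps, was at least 2.44-fold higher at 7 dps (adjusted p = 0.0006). In vehicle/ACS DRG 7 of the 12 genes also rose and 0 fell by 7 dps (median 0.69), while the no sponge median was -0.31.

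Erythrocyte genes were already higher at 3 dps, with a mean level of 7.38 to 7.63 against 6.89 to 7.09 at 1 dps. At 7 dps that level was 7.44 to 8.25, the highest being replicate 3. Summed over the 12 neutrophil genes, normalized intensity was 762 to 999 on day 1, 892 to 2700 on day 3 and 1170 to 5030 on day 7, and over 7 erythrocyte genes 4400 to 7140, 9640 to 15500 and 7300 to 19600. At 1 dps 4 of the 12 neutrophil genes and 3 of the 7 erythrocyte genes were detected on no array, and at 7 dps 0 and 0. Of the erythrocyte genes 2 rose by 3 dps and 6 by 7 dps and 0 fell. Blood retained in the ganglion and cells in the tissue were not separated, and the part of blood in the granulocyte rise was not tested. Of 7 T and B lymphocyte genes 4 rose by 3 dps and 5 by 7 dps, and 0 fell. On no array were 3 of these 7 detected at 1 dps, 1 at 3 dps and 0 at 7 dps. Those undetected at 1 dps were kept through later days, so the filter partly set their direction. Among 17 endothelial genes 7 rose and 0 fell by 3 dps, or 2 and 2 without replicate 3, and the leukocyte adhesion molecule Vcam1 was 2.02-fold higher at 3 dps (adjusted p = 0.002).

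Cell cycle genes were higher at both later days than at 1 dps. Of 25 genes, 13 rose from 1 to 3 dps and 12 from 1 to 7 dps with 0 falling, and from 3 to 7 dps 2 rose and 3 fell. At 1 dps 4 of the 25 were detected on no array, at 3 dps 2 and at 7 dps 0. Those undetected at 1 dps were kept through later days, so the filter partly set their direction. Without replicate 3 at 3 dps 10 rose from 1 to 3 dps, with a median of 0.23 in place of 0.57, and 6 rose and 1 fell from 3 to 7 dps. Cdk1, the kinase of mitotic entry, was 4.66, 4.81, 6.19 and 4.84 at 1 dps, where 1 of 4 arrays detected it, 6.17, 6.69 and 7.42 at 3 dps and 6.62, 6.63, 7.19 and 6.55 at 7 dps. A single array at 1 dps, that with the muscle transcripts, reached the lowest level of 3 dps. Cdk1 rose 3.11-fold by 3 dps and 3.08-fold by 7 dps (adjusted p = 0.0033 and 0.0016), and the spindle checkpoint kinase Bub1, also detected on 1 of 4 arrays at 1 dps, 1.6-fold and 2.03-fold (adjusted p = 0.0029 and 9.2e-05). In vehicle/ACS DRG 18 of the 25 genes rose and 2 fell from 3 to 7 dps. The difference between treatments in that interval was called for 6 genes, all lower with rhBMP-2/ACS, and for 0 without replicate 3 at 3 dps.

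Part of the immediate early and glial genes fell between 3 and 7 dps. Of 19 immediate early genes 3 rose and 1 fell by 3 dps, 1 rose and 6 fell from 1 to 7 dps, and 1 rose and 8 fell from 3 to 7 dps. Without replicate 3 at 3 dps the first became 1 and 1 and the last 0 and 5. Fos, a transcription factor of stimulated neurons and glia, was 8.55, 9.30, 9.32 and 8.45 at 1 dps, 8.39, 9.48 and 9.64 at 3 dps and 6.96, 7.40, 7.62 and 7.85 at 7 dps. The arrays of 7 dps lay below all others, and those of 1 and 3 dps overlapped. Fos fell 3.27-fold from 3 to 7 dps (-1.71 ± 0.30, adjusted p = 0.00079), Junb 2.77-fold (adjusted p = 6.4e-05) and Egr1 1.96-fold (adjusted p = 0.002).

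In vehicle/ACS DRG Fos differed by -1.75 and Egr1 by -1.62 from 1 to 3 dps. For these genes the treatments are compared here only from 3 to 7 dps. The change from 3 to 7 dps differed between the treatments by -2.31 ± 0.66 for Fos, -1.55 ± 0.38 for Junb and -1.23 ± 0.35 for Egr1 (adjusted p = 0.031, 0.013 and 0.03), and all 3 calls were lost without replicate 3 of rhBMP-2/ACS at 3 dps.

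Gfap, the intermediate filament of reactive satellite glia, was 9.99, 10.03, 10.20 and 11.06 at 1 dps, 10.07, 10.53 and 10.95 at 3 dps and 8.87, 9.08, 9.88 and 9.10 at 7 dps. It was not called over the first interval (0.20 ± 0.28, adjusted p = 0.62), and all 4 rats at 7 dps were below all earlier ones, a fall of 2.44-fold from 3 dps (-1.29 ± 0.28, adjusted p = 0.0028). In vehicle/ACS DRG Gfap differed by -1.78 from 1 to 3 dps and by 1.38 from 3 to 7 dps, and the change from 3 to 7 dps differed between the treatments by -2.67 ± 0.50 (adjusted p = 0.0018). Gldn, a nodal protein of Schwann cells, had a fall of 2.86-fold from 3 to 7 dps (adjusted p = 0.0029) and a difference from vehicle/ACS of -2.84 ± 0.60 (adjusted p = 0.0044). Both differences were called without each array in turn.

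The glial fatty acid binding protein Fabp7 fell 2.01-fold from 3 to 7 dps (adjusted p = 0.0064), and its change from 1 to 7 dps was more downward than in no sponge DRG by -1.71 ± 0.34 (adjusted p = 0.012). Of 12 satellite and reactive glial genes, 1 rose and 5 fell from 3 to 7 dps. Myelin genes split, with 3 of 12 rising and 4 falling by 3 dps, or 5 and 3 under median scaling and 3 and 2 without replicate 3 at 3 dps. Mbp, a major myelin protein, fell 1.73-fold by 3 dps (adjusted p = 0.00047), while Cnp, a phosphodiesterase of myelin, rose 1.56-fold (adjusted p = 0.0044). Hapln2, a link protein of nodes, fell 2.83-fold by 3 dps and by 7 dps overlapped with its level at 1 dps (0.01 ± 0.21 against 1 dps, adjusted p = 0.97).

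Lipid synthesis genes were lowest at 3 dps. Of 24 cholesterol and fatty acid synthesis genes, 1 rose and 10 fell from 1 to 3 dps, 3 rose and 7 fell from 1 to 7 dps and 10 rose and 3 fell from 3 to 7 dps, with medians of -0.28, -0.05 and 0.20. The first direction turned with the scaling, since median scaling gave 6 rising and 2 falling from 1 to 3 dps (median -0.02 against 0.13 over all probes) and 9 and 1 from 1 to 7 dps. Pmvk, a kinase of the mevalonate pathway, was 8.47, 8.36, 8.29 and 8.74 at 1 dps, 7.56, 7.53 and 7.31 at 3 dps and 8.02, 8.07, 8.21 and 8.12 at 7 dps. Its groups did not overlap and 3 dps was lowest, 2-fold under 1 dps (adjusted p = 6.3e-05).

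The fatty acid desaturase Fads2 was 7.33, 7.07, 7.49 and 7.38 at 1 dps, 6.25, 6.22 and 6.28 at 3 dps and 7.01, 6.80, 7.15 and 6.88 at 7 dps. The arrays of 3 dps lay below all others, with a fall of 2.1-fold (adjusted p = 6.8e-05) and a rise of 1.64-fold from 3 to 7 dps (adjusted p = 0.00083). Scd, the stearoyl-CoA desaturase, fell 1.57-fold and rose 1.7-fold (adjusted p = 0.0022 and 0.00056), the fall being lost under median scaling. The rise from 3 to 7 dps exceeded that of vehicle/ACS by 0.70 ± 0.17 for Fads2 and 0.94 ± 0.19 for Scd (adjusted p = 0.015 and 0.0034). Over the list this held for 9 genes, for 2 without replicate 3 at 3 dps and for 1 under median scaling. Srebf2, the transcription factor that drives cholesterol genes, fell 2.55-fold from 3 to 7 dps (adjusted p = 1.5e-05). In 54 respiratory chain genes 0 rose and 13 fell by 3 dps, which became 26 and 1 under median scaling and 3 and 10 without replicate 3 at 3 dps.

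Genes that respond to BMP signaling showed no common direction. Over all probes 14.8% rose and 15.8% fell from 1 to 3 dps. The shares were 20.2% and 19.5% from 1 to 7 dps and 21.0% and 17.5% from 3 to 7 dps. Of 16 BMP and Smad target genes, 2 rose and 0 fell from 1 to 3 dps, 6 rose and 4 fell from 1 to 7 dps and 1 rose and 3 fell from 3 to 7 dps, with medians of 0.07, -0.05 and -0.14 and single genes between -1.54 and 1.06. Id1, an inhibitor of differentiation, was not called by 3 dps (-0.16 ± 0.19, adjusted p = 0.55) and was 1.69-fold lower at 7 than at 1 dps (adjusted p = 0.0042). The inhibitory Smads lay near the detection limit. Smad7 was detected on 0 of 4 arrays at 1 dps and 4 of 4 at 7 dps, at least 1.14-fold higher (adjusted p = 0.005, a call lost with the authors' normalized values), and Smad6 on 0 of 3 arrays at 3 dps and 4 of 4 at 7 dps, at least 1.27-fold higher (adjusted p = 0.008). From 1 to 7 dps 4 of 22 ligand, receptor and transducer genes of the pathway rose and 7 fell, or 6 and 5 under median scaling. For 1 to 3 dps 0 of the 16 target genes differed from vehicle/ACS in their change, and from 3 to 7 dps 1 did.

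Other lists showed smaller or mixed changes. Of 57 cytosolic ribosomal protein genes 19 rose and 12 fell by 3 dps, 6 rose and 9 fell by 7 dps and 9 rose and 15 fell from 3 to 7 dps, and median scaling gave 32 and 5, 36 and 1, and 7 and 13. The change from 3 to 7 dps was more downward than in vehicle/ACS DRG, where 31 rose and 3 fell, for 20 of them and more upward for 0, or for 5 without replicate 3 of rhBMP-2/ACS at 3 dps and 12 under median scaling. Of 21 neuron cytoskeleton and vesicle release genes 1 rose and 8 fell by 3 dps, which became 8 and 3 under median scaling, and 8 rose and 3 fell from 3 to 7 dps. Of 24 heat shock and unfolded protein response genes 2 rose and 6 fell by 3 dps and 1 rose and 7 fell by 7 dps, which became 6 and 3 and 6 and 2 under median scaling.

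Of 20 interferon response genes 6 rose and 1 fell by 3 dps (4 and 1 without replicate 3) and 4 rose and 2 fell by 7 dps, and of 14 matrix proteases and inhibitors 4 rose and 2 fell by 3 dps and 3 rose and 5 fell from 3 to 7 dps. Of 13 circadian clock genes 4 rose and 2 fell from 1 to 7 dps, and of 14 glucocorticoid induced genes 3 rose and 1 fell. From 1 to 7 dps 2 of 10 adipocyte genes rose and 1 fell, and 2 of 8 cartilage and bone genes rose and 2 fell. Over all probes 20.2% rose and 19.5% fell in that comparison. Of 14 genes chosen because they were assayed by PCR as well, 5 rose and 4 fell over the week.

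Several of the largest falls of the time course were common to all treatments. Elovl5, a fatty acid elongase, was 8.31, 8.49, 8.75 and 8.78 at 1 dps, 8.07, 8.42 and 8.28 at 3 dps and 6.00, 6.79, 5.84 and 6.09 at 7 dps. Napb, a vesicle fusion protein of neurons, was 8.20, 8.36, 8.28 and 8.60 at 1 dps, 9.02, 9.13 and 8.34 at 3 dps and 6.31, 6.53, 6.01 and 6.55 at 7 dps. For both genes every array of 7 dps lay well below every earlier one. The falls from 1 to 7 dps were 5.3-fold (-2.40 ± 0.18, adjusted p = 4e-06) and 4.04-fold (-2.01 ± 0.17, adjusted p = 7e-06), and vehicle/ACS and no sponge DRG gave -2.43 and -2.75 for Elovl5 and -2.39 and -2.26 for Napb.

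Atad1, an ATPase of mitochondria and synapses, and Golph3, a Golgi protein, fell 3.62-fold and 3.14-fold from 1 to 7 dps (adjusted p = 1e-05 and 4.3e-05), with -1.93 and -2.30 in no sponge DRG. Gapdh, a glycolytic enzyme often used as a reference, was 12.59, 12.80, 12.73 and 12.68 at 1 dps, 12.09, 11.89 and 11.91 at 3 dps and 12.01, 12.12, 12.23 and 12.18 at 7 dps. It was highest at 1 dps without overlap and fell 1.67-fold by 3 dps (-0.74 ± 0.07, adjusted p = 2e-05), with -0.74 in vehicle/ACS and -0.58 in no sponge DRG. For these 5 genes the change from 1 to 7 dps was not called different from either other treatment (lowest adjusted p = 0.14). The array background moved by the same days in every treatment, and its part in these changes was not tested.

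**Figure D4:**
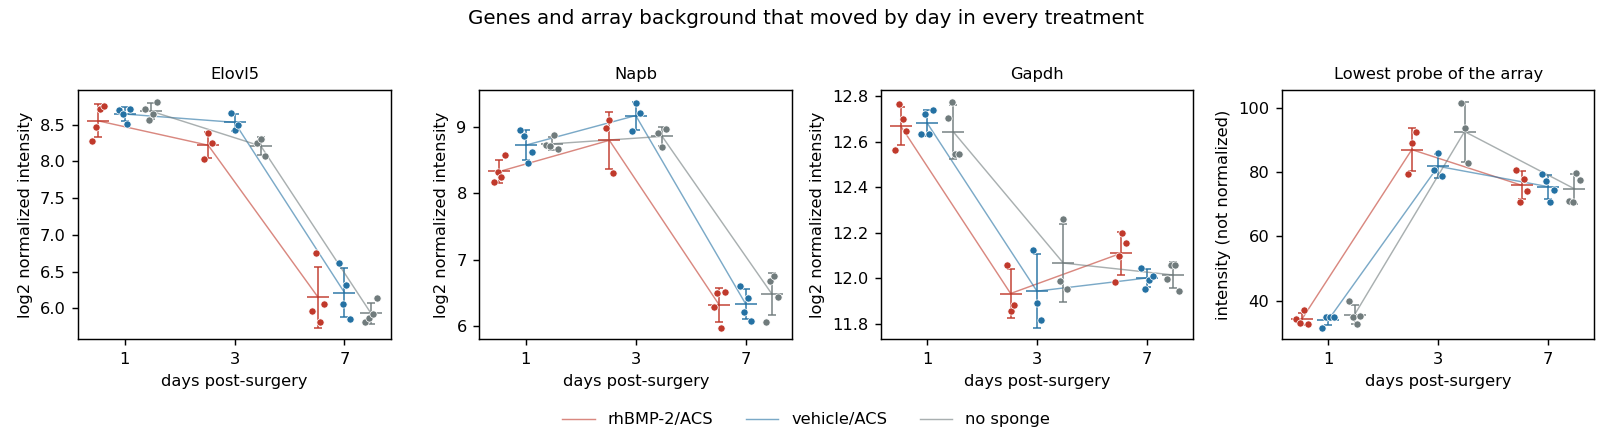
Log2 normalized intensity of Elovl5, Napb and Gapdh and the lowest intensity of each array before normalization (vertical axes) at 1, 3 and 7 dps (horizontal axis) in the 3 treatments, with 1 point per array and bars for the mean and SD of 4, 3 and 4 arrays. Elovl5 and Napb are lowest at 7 dps, Gapdh is highest at 1 dps and the array background is lowest at 1 dps in all 3 treatments.

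Of 8 acute phase protein genes 0 rose and 0 fell from 1 to 3 dps, 0 rose and 2 fell from 1 to 7 dps and 0 rose and 3 fell from 3 to 7 dps, or 2 without replicate 3 at 3 dps. Lbp, the lipopolysaccharide binding protein, was 6.74, 7.67, 8.91 and 6.91 at 1 dps, 5.65, 7.28 and 9.38 at 3 dps and 5.05, 4.48, 5.74 and 4.97 at 7 dps. At 3 dps its 3 rats spanned most of the range of the whole time course, and by 7 dps it was 5.66-fold under 1 dps (-2.50 ± 0.63, adjusted p = 0.007). Apart from replicate 3, its levels at 7 dps lay near or below the lowest detected signal of those arrays (4.90 to 4.94), which limits that fold. Chi3l1, a chitinase-like protein, fell 3.5-fold and Prg4, the joint lubricant lubricin, 3.98-fold from 1 to 7 dps (adjusted p = 0.00038 and 0.0029). In no sponge DRG these 3 genes fell by 3.23, 2.55 and 2.77 on the log2 scale. Ptgds, the prostaglandin D synthase of meninges and glia, fell 2.02-fold by 3 dps and rose 3.39-fold from 3 to 7 dps (adjusted p = 0.00071 and 1.2e-05). Krt19, a keratin of epithelia, was detected on 0 of 4 arrays at 1 dps and was at least 2.71-fold higher at 7 dps (adjusted p = 7e-06), against a rise of 1.18 on the log2 scale in no sponge DRG.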

How the data were processed

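Per the methods, DRG RNA was hybridized to Illumina Rat Ref-12 BeadChips, and the deposited table that was used gives each probe's average bead intensity, not normalized, beside a detection p-value against the negative control beads of the array. Their other deposited table holds intensity after offset background subtraction and quantile normalization in GenomeStudio (version not given in the sources used here) and served as an alternative, floored at 16. From the unnormalized table, background was corrected from the detection p-values (nec, offset 16), the 11 arrays were quantile normalized together, and a probe was kept if 75% or more of a day's arrays detected it (p under 0.05). Days were compared by limma 3.58.1 (R 4.3.3) with Benjamini-Hochberg adjustment over all kept probes. Changes were set against those of vehicle/ACS and no sponge in 1 fit of 33 arrays and 9 groups, normalized together. Arrays give no counts, so their number limits the precision.

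The platform annotation gave 1 gene symbol to 13793 of 22523 probes and none to 8730, and 13752 matched RefSeq. A gene was represented by its brightest kept probe. Genes were named if they had one of the 10 highest or 10 lowest called changes without overlap of days, were among up to 4 called members of a list per direction, or were measured by PCR in the study. Of 323 such genes 69 are described, chosen after their values were seen. The members and lists were chosen with earlier results of these data known. A bound ("at least") sets the brighter group's mean against, on each array, the higher of the lowest signal among detected probes and the probe's own. The models were tested on simulated data. Each array is taken as a separate rat from the methods, and the labels alone do not say so. Numbers were not taken as pairs, because the days are understood to hold different rats. Same-numbered arrays of different days nevertheless correlated over 0.1 in 6 of 10 pairs, and a replicate block was fitted as an alternative. Alternatives changed scaling, background, offset, filter, weights, source table, arrays fitted, replicate block and thresholds, and left out each array. No slide was given, so slide was not fitted as a block. Figures were drawn with matplotlib 3.10.9.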

Additional observations from a re-analysis of the deposited data

Results flagged for a closer look

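Single arrays lay far from the other 3 of their group in 9 of 100 groups of 4 arrays, where chance gives about 1 in 20. Gal at 1 dps was 8.16 on 1 array against 7.41 to 7.52 on the others, and Cdk1 was 6.19 against 4.66 to 4.84 at 1 dps and 7.19 against 6.55 to 6.63 at 7 dps. The mean level of skeletal muscle genes was 7.78 against 6.78 to 6.84 at 1 dps and 7.59 against 6.84 to 6.92 at 7 dps. That of erythrocyte genes was 8.25 against 7.44 to 7.52 at 7 dps, and that of MHC class II genes 8.21 against 8.44 to 8.49 at 7 dps. Respiratory chain genes were 11.37 against 11.29 to 11.3 at 1 dps and 11.25 against 11.32 to 11.33 at 7 dps.

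The change between days differed between treatments by limma's test of the difference. For 1 to 7 dps against no sponge DRG, the log2 difference was 2.64 for Npy, 3.03 for Vip, 2.54 for Gal, 3.46 for Csrp3, 1.72 for Atf3, 2.68 for Cxcl9, 3.1 for Per2 and -1.71 for Fabp7. Over the same days no probe was called different from vehicle/ACS. Against vehicle/ACS from 1 to 3 dps it was 2.11 for Cthrc1, 1.2 for Col5a2, 1.75 for Col18a1 and 1.31 for Fbn1. Immune genes gave 2.19 for Fcgr3a, 1.03 for Cybb, 1.28 for C4b, 2.22 for Cxcl10 and 2.32 for Cxcl11.

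From 3 to 7 dps the difference from vehicle/ACS was -2.87 for Cthrc1, -1.49 for Col5a2, -2.58 for Col18a1 and -1.79 for Fbn1. It was -2.29 for Fcgr3a, -1.16 for Cybb, -2.08 for Cd14, -1.2 for C4b, -2.2 for Cxcl10 and -2.4 for Cxcl11. Cdk1 gave -1.71, Fos -2.31, Junb -1.55, Egr1 -1.23, Gfap -2.67 and Gldn -2.84, while Fads2 gave 0.7 and Scd 0.94. Over all probes the difference from vehicle/ACS was called for 140 from 1 to 3 dps and 832 from 3 to 7 dps. Against no sponge DRG 106 were called from 1 to 3 dps, 84 from 1 to 7 dps and 2 from 3 to 7 dps.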

How the results depend on the processing

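For the 3 comparisons of days every alternative but the thresholds of the methods kept the count of probes within 1.5 times, and those thresholds gave 678, 802 and 1002. Leaving out 1 array gave 2733 to 3563, 3649 to 4952 and 3389 to 4387. With the replicate block the counts were 3757, 4882 and 4659. The differences against vehicle/ACS and no sponge were then 262 and 208 from 1 to 3 dps, and 155 against no sponge from 1 to 7 dps. Whether such a block was needed was not settled by the pairing check (6 of 10 pairs over 0.1, 7 of 11 arrays closest to their own number). Block changed no other count by over 1.5 times.

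Differences between treatments moved more. Against vehicle/ACS from 1 to 3 dps, 140 probes became 87 with no detection filter and 4 with only the 4 groups compared, and 5 to 390 without single arrays. From 3 to 7 dps 832 became 496 under median scaling, 547 with array weights and 416 with only the 4 groups, and 209 to 1192 without single arrays. From 1 to 7 dps the authors' values called 1, and leaving out arrays 0 to 2. Against no sponge from 1 to 3 dps, 106 became 65 under median scaling, 60 without filter and 10 with the 4 groups (15 to 335 without single arrays). From 1 to 7 dps 84 became 212, 291 with weights and 164 with the 4 groups (47 to 109). From 3 to 7 dps 2 became 30 with the authors' values, 7 with weights and 0 with the 4 groups (1 to 13). The cause was not tested.

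Uncalled differences changed sign for Npy against vehicle/ACS from 1 to 7 dps, -0.09 as reported, which was 0.0199 with array weights and -0.34 to 0.22 without single arrays (above 0 without rhBMP-2/ACS 1 dps replicate 3 or 4 or vehicle/ACS 1 dps replicate 4). For Vip it was -0.44 to 0.11 (above 0 without rhBMP-2/ACS 1 dps replicate 3), and Trpv1 from 1 to 3 dps was 0.0829 under median scaling. Among genes compared between days, 12 of the leave-one-out results and 8 of the others lost their call. Among genes compared between treatments 72 and 15 did. Median scaling ended the calls of Calcb and Scd from 1 to 3 dps and of Fabp7 from 1 to 7 dps. Smad6 from 1 to 7 dps was lost with all 33 arrays and Smad7 from 1 to 7 dps with the authors' values.

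Probes near background, such as those of the inhibitory Smads, limit what their folds can show, and 3 or 4 arrays a day leave wide errors. Day and array batch cannot be told apart within rhBMP-2/ACS, and only the comparison with the other treatments is free of a shift common to all arrays of a day.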
